A study of Mus musculus with 16 samples.

Results

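Macrophages of the mouse line RAW264.7 were compared after incubation with extracellular vesicles (EVs) from 2 sources, and the whole microRNA (miRNA) table of these cells is described here. The comparison holds 6 of the 16 libraries of the study, 3 from the serum Con A EV group and 3 from the RAW Con A EV group, chosen by their sample titles. Of the 941 miRNA names in the table, 680 had at least 1 read in these 6 libraries and 229 had enough reads to be tested.

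RAW264.7 is a macrophage line from a virus-induced tumour of a male BALB/c mouse, and all recipient cells came from it. Both groups were kept for 8 h with 6e9 EV particles per mL of EV-free medium and were then treated with concanavalin A (Con A), a T cell-activating plant lectin that harms the liver on injection, for a further 16 h. The sources used here do not give the dose of this Con A step. Serum Con A EVs came from female BALB/c mice of 8 to 9 weeks, bled 9 h after 15 mg/kg Con A into a vein, and were pelleted at 208000 g for 70 min. RAW Con A EVs came from the medium of RAW264.7 cells kept for 24 h with Con A at 25 µg/mL, were passed through a 0.2 µm filter and were pelleted at 175000 g for 4 h. The EVs thus differed in host, cell of origin, exposure to Con A and preparation at once, and these cannot be told apart. Cells that received PBS, and cells that received EVs of saline-treated RAW264.7 cells (RAW saline EVs), each with 3 libraries and the same Con A step, are set beside the 2 groups. No cells received EVs of saline-injected mice. One library of each EV preparation gives its cargo.

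A miRNA is cut from a hairpin transcript with 2 arms, named 5p and 3p, of which 1 is usually kept in the silencing complex and the other mostly degraded. Bases 2 to 8 of the mature miRNA, the seed, pair with messenger RNAs, which are then repressed, so miRNAs with the same seed share many targets. In macrophages, NF-κB signalling induces miR-155, which favours inflammatory output, and miR-146a, which targets the adaptors of Toll-like receptor signalling and limits it. EVs carry miRNAs between cells, and miR-122 of hepatocytes and miR-451a of red cells are common miRNAs of serum.

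The mature sequences below, with the seed in capitals, are a selection from the larger differences and from miRNAs with a common seed (RefSeq, GRCm38.p6). RefSeq sequences were matched for 207 of the 229 tested miRNAs and 73 of the 81 that were called. These are miRNAs that were lower with serum Con A EVs, and last miR-146b-5p, which shares the seed of miR-146a-5p and was not called.
miR-155-5p: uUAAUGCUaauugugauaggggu
miR-155-3p: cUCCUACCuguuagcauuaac
miR-192-5p: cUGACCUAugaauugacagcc
miR-194-5p: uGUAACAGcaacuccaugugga
miR-450b-5p: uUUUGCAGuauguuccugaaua
miR-450a-5p: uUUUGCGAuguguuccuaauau
miR-322-3p: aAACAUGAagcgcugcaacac
miR-146a-5p: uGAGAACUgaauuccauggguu
miR-146b-5p: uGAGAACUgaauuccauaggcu
The next sequences are pairs that share a seed and were lower together.
miR-7a-5p: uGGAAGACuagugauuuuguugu
miR-7b-5p: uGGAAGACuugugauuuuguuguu
miR-221-3p: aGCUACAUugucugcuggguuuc
miR-222-3p: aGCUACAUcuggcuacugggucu
miR-27a-3p: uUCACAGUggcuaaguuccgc
miR-27b-3p: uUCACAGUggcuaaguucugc
The last are miRNAs that were higher in cells given serum Con A EVs, among them 3 passenger strands of let-7 hairpins with a common seed.
miR-451a: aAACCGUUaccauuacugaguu
miR-148a-3p: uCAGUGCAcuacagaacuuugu
miR-92a-1-5p: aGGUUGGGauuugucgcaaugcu
miR-130b-5p: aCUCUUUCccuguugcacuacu
let-7a-1-3p: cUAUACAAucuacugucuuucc
let-7c-2-3p: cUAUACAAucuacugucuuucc
let-7f-1-3p: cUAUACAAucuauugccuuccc
miR-7a-5p and miR-7b-5p differ at 1 position over their shared length, as do miR-27a-3p and miR-27b-3p, so reads may be split between the members of a pair. let-7a-1-3p and let-7c-2-3p are identical, and their reads cannot be told apart.

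The serum Con A EV group had 347877, 276323 and 285968 miRNA reads in its libraries, and the RAW Con A EV group 174510, 244954 and 403332. Levels in cells are given in CPM, the reads of a miRNA relative to the reads of all tested miRNAs of its library, scaled by TMM. For EV libraries CPM is relative to all miRNA reads, without scaling. In the 6 cell libraries a count of 0 allows up to 7.88 to 17.9 CPM, a floor for counting error alone. Whether the 3 libraries of a group were separate cultures is not in the labels, so p-values measure the spread between these libraries. The macrophage and myeloid markers held 242486 to 261709 CPM in the serum Con A EV group and 334441 to 339864 CPM in the RAW Con A EV group. miR-21a-5p was the leading miRNA of all 6 libraries and made up most of this sum. It was lower with serum Con A EVs, as were miR-146a-5p and miR-155-5p of the list, while miR-142a-3p was higher. The sum of this list is therefore no separate result beside their changes. Within that list miR-223-3p, a miRNA of granulocytes and monocytes, was low at 29.0 ± 8.04 and 18.7 ± 13.0 CPM (mean ± SD, n = 3 and 3). The RAW Con A EV library itself was led by miR-122-5p, a hepatocyte miRNA, with 20.8% of its reads, which goes against its label as macrophage EVs. The RAW saline EV library held 3528 CPM of it.

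The 2 kinds of EVs left recipient cells with different miRNA profiles, and among the widest differences were miR-155-5p, miR-192-5p, miR-194-5p and a chromosome X cluster, all lower after serum Con A EVs, and miR-451a, miR-148a-3p and miR-122-5p, all higher. Of 229 tested miRNAs, 81 (35.4%) passed edgeR's quasi-likelihood test at a Benjamini-Hochberg adjusted p under 0.05. Of these 41 (17.9% of those tested) were higher with serum Con A EVs and 40 (17.5%) were lower. At least 2-fold differences made up 8 of the higher and 10 of the lower calls, and the median size of a called difference was 0.58 on the log2 scale. The 3 libraries of each group lay apart from those of the other for 107 of the 229 miRNAs (46.7%) and for 79 of the 81 calls. miR-22-5p and miR-10a-3p were the calls with overlapping groups. In bulk RNA of a culture, fewer cells that hold a miRNA and less of it per cell cannot be told apart.

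Scaling sets the balance of the 2 directions. With library size alone in place of TMM the median change over all tested miRNAs moved by 0.22 on the log2 scale, and 88 miRNAs were higher and 20 lower. All 41 higher calls and 20 of the 40 lower calls were kept in that fit. Leaving out RAW Con A EV library 3, the deepest of its group, left 23 higher and 36 lower, and DESeq2 called 22 and 33. Of the 81 calls, 49 (18 higher and 31 lower) held without any 1 of the 6 libraries, and among the 15 largest falls and the 15 largest rises these were 14 and 6.

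**Figure D1:**
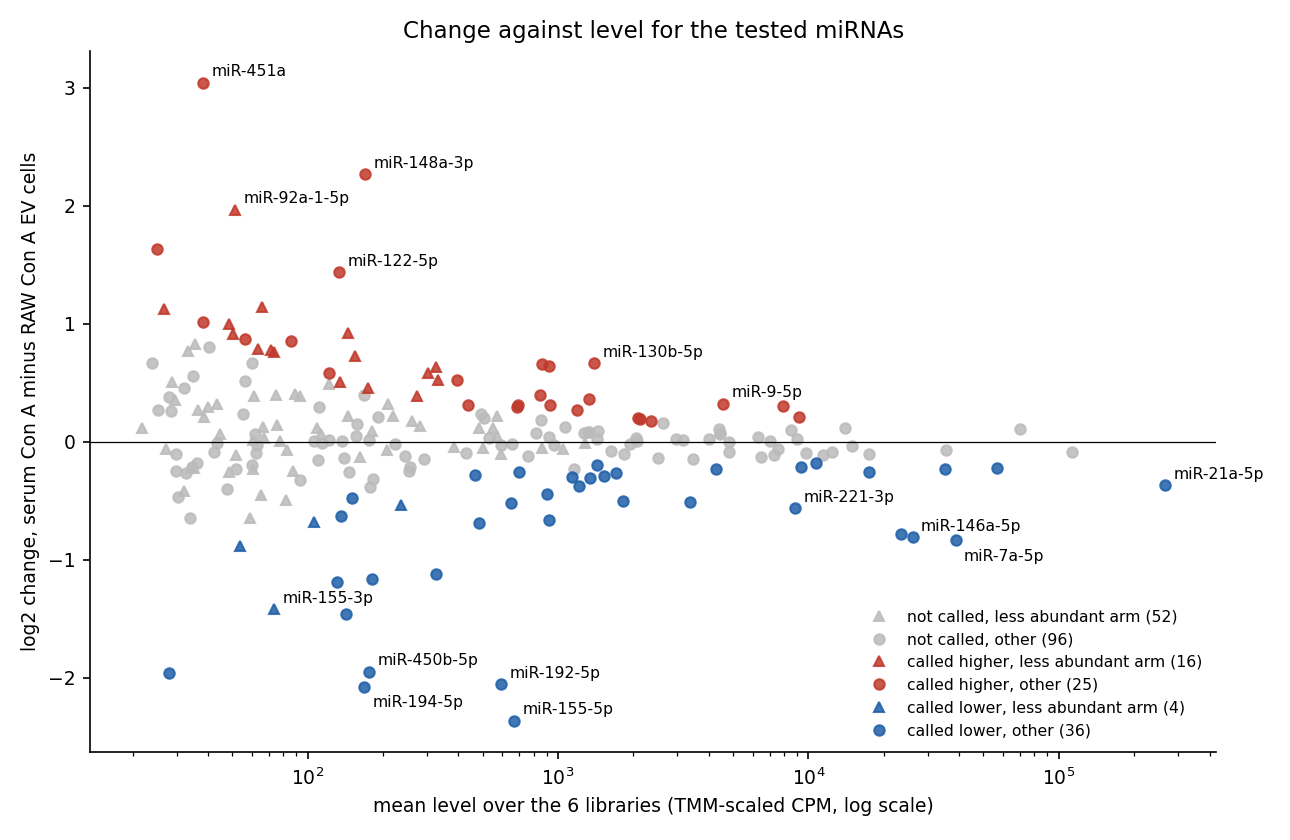
Log2 change between cells given serum Con A and RAW Con A EVs (vertical axis) against the mean level over the 6 libraries in TMM-scaled CPM (horizontal log axis) for 229 tested miRNAs. Red marks the 41 called higher, blue the 40 called lower and grey the rest, and triangles mark the less abundant arm of a hairpin. The falls reach miRNAs of high level such as miR-21a-5p and miR-7a-5p, while the larger rises sit at low levels.

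miR-155-5p, the inflammation-induced product of the Mir155 hairpin on chromosome 16, had the smallest p of all. Its level was 231, 215 and 204 CPM in the serum Con A EV libraries and 1157, 1078 and 1129 CPM in those given RAW Con A EVs. The groups were far apart, and the 3 serum libraries lay within a narrow band. The level was 5.14-fold lower with serum Con A EVs (log2 change −2.36, SE 0.11, adjusted p = 3.08e-39, edgeR's quasi-likelihood test). Cells given PBS held 1038 ± 112 CPM and cells given RAW saline EVs 1424 ± 43.0 CPM, so both stood on the side of the RAW Con A EV group. The other arm, miR-155-3p, is less abundant and was lower as well. It had 28.9, 52.9 and 42.7 CPM with serum Con A EVs against 83.5, 113 and 120 CPM with RAW Con A EVs. Its groups did not overlap, at a log2 change of −1.42 (SE 0.28, adjusted p = 1.14e-05, edgeR's test). Unlike the 5p arm, it was higher in PBS cells (177 CPM) than in any RAW Con A EV library, and RAW saline EV cells had 65.6 CPM.

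miR-146a-5p, which restrains NF-κB signalling, was also lower with serum Con A EVs. It had 19894, 18526 and 18407 CPM in these libraries and 37451, 33250 and 29081 CPM with RAW Con A EVs. All serum libraries were below all RAW Con A libraries, a 1.75-fold difference (log2 change −0.81, SE 0.06, adjusted p = 4.37e-16, edgeR's test). PBS cells had 17565 CPM and RAW saline EV cells 31090 CPM, so for this miRNA PBS cells stood near the serum group. miR-146b-5p, which has the same seed and comes from another chromosome, had 4544 ± 105 and 4313 ± 201 CPM (n = 3 and 3), a log2 change of 0.08 with an adjusted p of 0.376 by edgeR. miR-21a-5p, a growth-promoting miRNA and the most abundant of these cells, was lower with serum Con A EVs, at 232779 ± 11765 against 300015 ± 7027 CPM (log2 change −0.37, SE 0.06, adjusted p = 5.81e-08, edgeR's test). miR-9-5p, which is induced by Toll-like receptor signals in human monocytes and targets NFKB1, went the other way. It had 5120, 4967 and 5164 CPM with serum Con A EVs and 3835, 4401 and 3942 CPM with RAW Con A EVs (log2 change 0.32, SE 0.06, adjusted p = 8.75e-06, edgeR's test). Of the 7 tested members of the list of inflammation-responsive macrophage miRNAs, 1 was called higher and 4 lower, beside 17.9% and 17.5% of all tested miRNAs, with a median log2 change of −0.37 beside 0.01 over all. Of the myeloid list 1 of 3 was called higher, miR-142a-3p at 0.19, which lost its call without any 1 of serum Con A EV libraries 2 and 3 and RAW Con A EV libraries 2 and 3 (adjusted p up to 0.225 by edgeR).

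**Figure D2:**
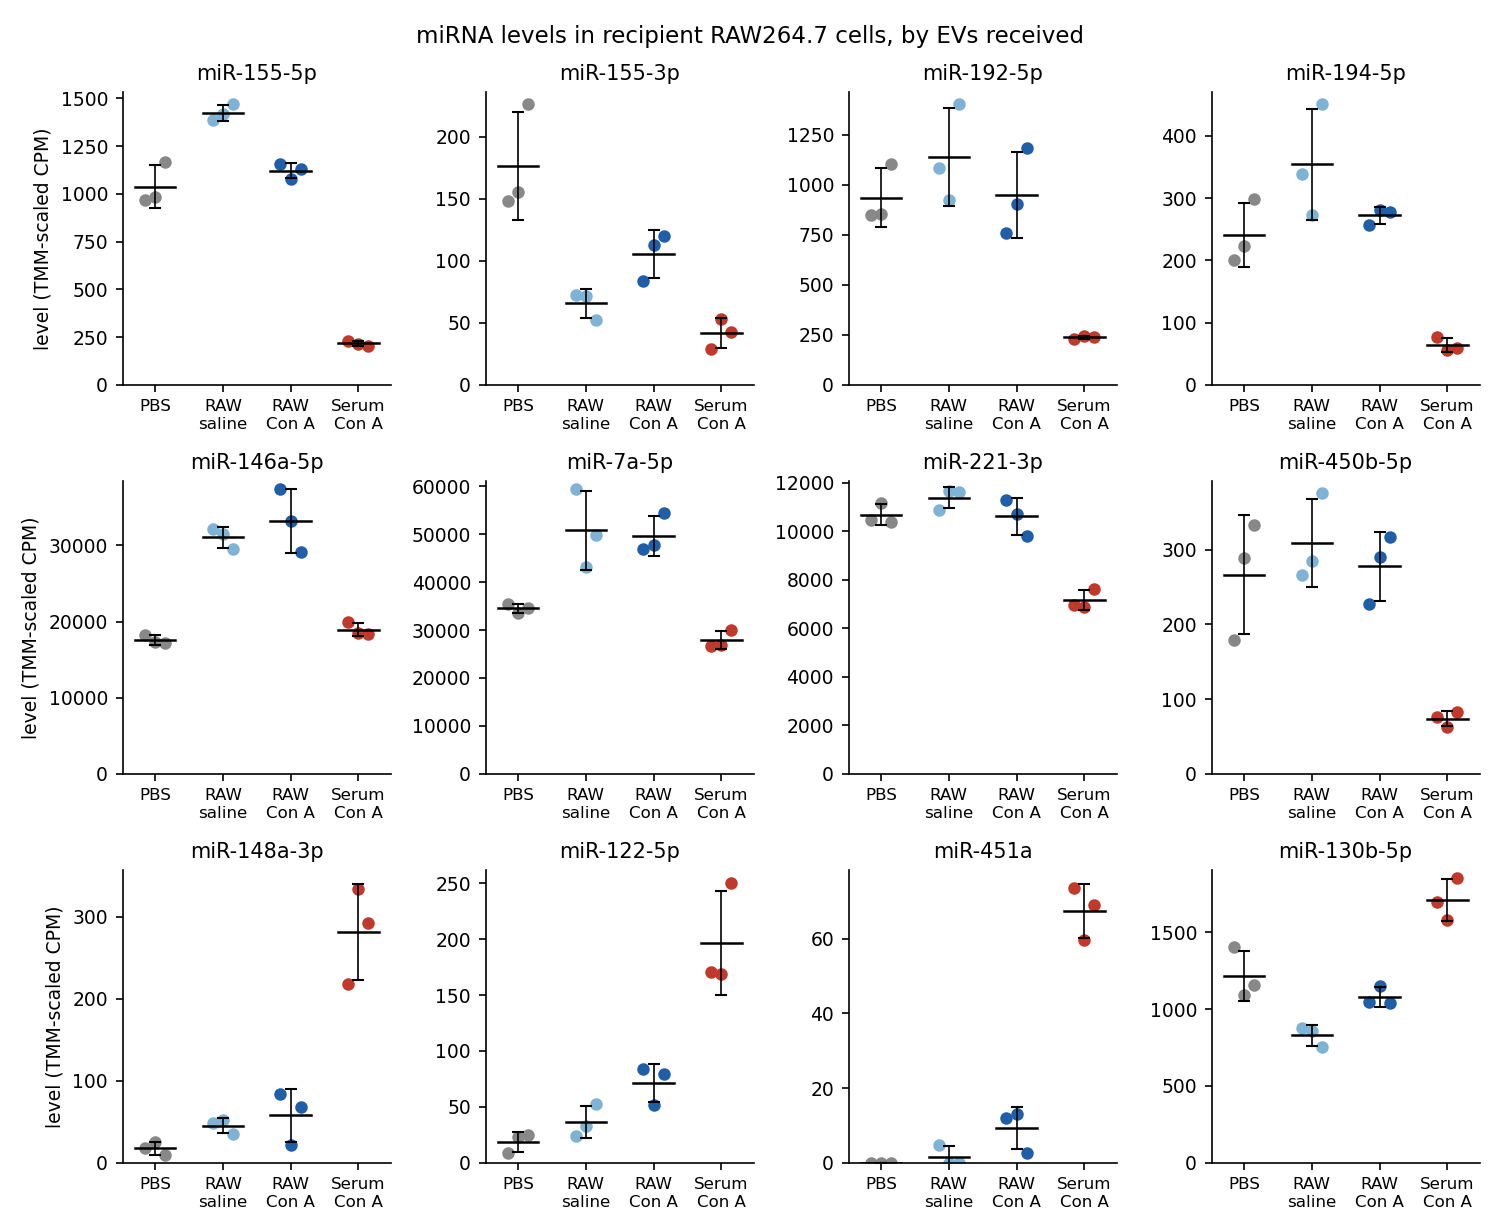
Level of 12 miRNAs in TMM-scaled CPM (vertical axes from 0) in each library of cells given PBS, RAW saline EVs, RAW Con A EVs or serum Con A EVs. Points are libraries, horizontal lines means and bars SD (n = 3 per group). miR-155-5p is near 217 CPM after serum Con A EVs and at 966 CPM or above in all other libraries, while miR-148a-3p, miR-122-5p and miR-451a are highest in the serum group.

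miR-192-5p and miR-194-5p are abundant in liver, gut and kidney and are co-transcribed. Mir192 and Mir194-2 lie within 264 bp of chromosome 19, and a further copy of miR-194-5p comes from chromosome 1. miR-192-5p had 229, 245 and 237 CPM with serum Con A EVs and 757, 904 and 1181 CPM with RAW Con A EVs. The serum libraries agreed closely and were all lower, with a log2 change of −2.05 (SE 0.23, adjusted p = 5.50e-05, edgeR's test). miR-194-5p had 76.2, 56.2 and 59.2 CPM against 256, 281 and 278 CPM, with no overlap (log2 change −2.07, SE 0.21, adjusted p = 1.71e-13, edgeR's test). PBS cells held 935 and 241 CPM of them and RAW saline EV cells 1138 and 354 CPM, again near the RAW Con A EV group. miR-215-5p, of the same family, was not tested, with 3 reads over the serum Con A EV libraries and 25 over the RAW Con A EV libraries.

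The chromosome X cluster of Mir322, Mir503, Mir351, Mir542 and the Mir450 genes lies within 6320 bp of RefSeq's GRCm38.p6 annotation. Its miR-322 (miR-424 in human) and miR-503 slow the cell cycle by targeting cyclins. Of its 8 tested members 6 were lower with serum Con A EVs and 0 higher, beside 17.5% and 17.9% of all tested miRNAs, with a median log2 change of −1.14 beside 0.01 over all. This cluster was listed because earlier results of these data had shown it. miR-450b-5p had 76.2, 62.8 and 82.2 CPM against 227, 290 and 316 CPM, with all serum libraries lower (log2 change −1.95, SE 0.21, adjusted p = 2.33e-11, edgeR's test). miR-322-3p had 216, 172 and 230 CPM against 394, 532 and 420 CPM, which also did not overlap (log2 change −1.12, SE 0.14, adjusted p = 4.56e-11). The other called members differed by −1.46 (miR-450a-5p), −1.19 (miR-542-3p), −1.16 (miR-503-5p) and −0.69 (miR-351-5p). miR-322-5p, the other arm of the Mir322 hairpin, stood at 80.6 ± 10.0 and 93.6 ± 19.2 CPM with overlapping groups (log2 change −0.25, adjusted p = 0.485, edgeR). miR-503-3p stood at −0.64 (adjusted p = 0.0862). All 6 calls held without any 1 library and with library size alone. PBS and RAW saline EV cells had 267 and 309 CPM of miR-450b-5p, close to the 278 CPM of the RAW Con A EV group.

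Pairs with a common seed went together in several families. miR-7a-5p and miR-7b-5p, which target growth factor receptor signalling, were among the most abundant miRNAs that were lower with serum Con A EVs. miR-7a-5p had 26714, 26959 and 30039 CPM against 46845, 47713 and 54362 CPM. Its groups did not overlap (log2 change −0.83, SE 0.10, adjusted p = 2.80e-05, edgeR's test), and miR-7b-5p differed by −0.78 (SE 0.08, adjusted p = 2.37e-08). The rarer miR-7a-1-3p stood at 0.39 (adjusted p = 0.324). miR-221-3p and miR-222-3p, which target the cell cycle inhibitor p27, come from hairpins within 617 bp of the X chromosome. miR-221-3p had 6957, 6882 and 7639 CPM against 11297, 10728 and 9801 CPM, all serum libraries being lower (log2 change −0.56, SE 0.06, adjusted p = 2.38e-14, edgeR's test), and miR-222-3p differed by −0.51 (SE 0.10, adjusted p = 4.74e-04). Their 5p arms were not called, at 0.12 and 0.02 (adjusted p = 0.485 and 0.984).

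Among the 15 seeds with at least 2 tested miRNAs and at least 1 call, 6 had 2 or more calls, and in each of the 6 the calls went in 1 direction. Besides the miR-7 and miR-221 seeds these were the seed of miR-27a-3p and miR-27b-3p (log2 changes −0.21 and −0.23), that of let-7e-5p and let-7f-5p (−0.30 and −0.22), that of miR-351-5p and miR-125b-5p (−0.69 and −0.23) and that of the 3 let-7 passenger strands. The miR-7 and miR-27 pairs and 2 of these passenger strands are so alike or identical that their reads may be shared, so their agreement is not independent. Of the 9 tested miRNAs with the let-7 seed only 2 were called, and the others ranged from −0.15 to 0.11. miR-125a-5p, with the seed of miR-351-5p, stood at −0.02. The falls of miR-27a-3p, miR-27b-3p, let-7e-5p, let-7f-5p and miR-125b-5p were not called with library size alone (adjusted p = 0.490 to 0.997), and that of let-7e-5p also ended without RAW Con A EV library 3 (0.102). In the other seeds a single member was called, and 0 seeds held calls in both directions. For example, miR-148b-3p, with the seed of miR-148a-3p, stood at 0.02 (adjusted p = 0.842, edgeR).

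Other lower calls were of the miR-22 hairpin. miR-22-3p had 615, 721 and 792 CPM against 1253, 1216 and 952 CPM, with all serum libraries lower (log2 change −0.66, SE 0.10, adjusted p = 6.51e-09, edgeR's test). Its other arm miR-22-5p was lower by 0.89 but overlapped, and it lost its call without any 1 of serum Con A EV library 1 and RAW Con A EV libraries 2 and 3 (adjusted p = 0.131, 0.0851 and 0.143). miR-23a-3p and miR-23b-3p were lower by 0.50 and 0.45 on the log2 scale. The call of miR-23b-3p ended with library size alone (adjusted p = 0.0606). miR-3473a had 21.0, 6.61 and 3.29 CPM with serum Con A EVs and 53.7, 38.9 and 43.6 CPM with RAW Con A EVs, without overlap (log2 change −1.96, SE 0.48, adjusted p = 4.60e-04, edgeR's test). Without serum Con A EV library 1 the log2 change was −3.05. PBS cells had 16.3 CPM of it and RAW saline EV cells 74.0 CPM. Of the 5 tested miR-378 members, 3 were called lower (−0.25 to −0.30), beside 17.5% of all tested miRNAs. With library size alone 0 were lower and 1 higher, beside 20 and 88 of all 229. The called miR-378c and miR-378d have much the same sequence, so their reads may be shared. The call of miR-378c also ended without any 1 of serum Con A EV library 3 and RAW Con A EV libraries 1 and 2 (adjusted p = 0.272, 0.100 and 0.118).

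Among the largest rises with serum Con A EVs were miRNAs that other cell types make. miR-451a, the main miRNA of red cells, which is processed by Ago2 without Dicer, had 73.6, 59.5 and 69.0 CPM with serum Con A EVs and 11.9, 13.0 and 2.73 CPM with RAW Con A EVs. These levels come from 67 and 6 reads over the 3 libraries, and PBS cells had 0 reads. The groups were well apart (log2 change 3.04, SE 0.50, adjusted p = 2.52e-07, edgeR's test). The log2 change was 2.40 when library 3 of the RAW Con A EV group was left out and 2.26 with limma-trend, and miR-451a was called in both. miR-148a-3p, abundant in liver, had 218, 334 and 293 CPM against 83.5, 21.6 and 68.2 CPM. All serum libraries were higher, 4.81-fold in the fit (log2 change 2.27, SE 0.23, adjusted p = 1.19e-11). miR-122-5p, the main hepatocyte miRNA, had 171, 169 and 250 CPM against 83.5, 51.9 and 79.1 CPM, again without overlap (log2 change 1.44, SE 0.22, adjusted p = 3.72e-08). In PBS cells miR-148a-3p and miR-122-5p stood at 17.6 and 18.8 CPM.

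Summed levels of erythrocyte, hepatocyte and endothelial markers were also higher with serum Con A EVs. They hold the called miR-451a, miR-122-5p and miR-126a-3p, so the sums are no separate result beside these rises. Erythrocyte markers (miR-451a, miR-144-3p and miR-486a-5p) summed to 82.2 to 103 CPM in the serum Con A EV libraries and 5.46 to 21.6 CPM in the RAW Con A EV libraries. Hepatocyte markers (miR-122-5p and miR-122-3p) summed to 169 to 250 CPM and 51.9 to 83.5 CPM, with miR-122-3p at 0 reads in all 6 libraries. Endothelial and platelet markers (miR-126a-3p and miR-126a-5p) summed to 771 to 845 CPM and 620 to 668 CPM. miR-126a-3p, the endothelial miRNA, was called higher (770 ± 26.5 against 613 ± 34.0 CPM, log2 change 0.32, adjusted p = 0.00912, edgeR's test) and lost its call without RAW Con A EV library 1 (0.0554). Lymphocyte markers (miR-150-5p and miR-181a-5p) overlapped, at 1315 to 1390 CPM and 1199 to 1406 CPM. Stromal markers, 4 miRNAs of which miR-145a-5p and miR-214-3p were at 0 in all 6 libraries, summed to 473 to 618 CPM and 453 to 469 CPM, and the groups all but touched. Epithelial markers overlapped, at 105 to 169 and 113 to 183 CPM with miR-375-3p at 0, and muscle markers did too, at 2.63 to 6.57 and 0 to 21.6 CPM, with miR-206-3p at 0. Whether RNA of such cells or of the EVs themselves takes part in these rises was not tested.

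Of the hepatocyte list, the 5 tested members split, with miR-122-5p and miR-148a-3p called higher and miR-192-5p and miR-194-5p called lower. Of 7 erythrocyte miRNAs in the list 1 was tested. The untested miR-486a-5p and miR-486b-5p had 17 and 19 reads over the serum Con A EV libraries and 2 and 3 over the RAW Con A EV libraries. The 2 tested endothelial and platelet members had 1 call, and 1 of 3 lymphocyte, 0 of 2 epithelial and 0 of 4 stromal miRNAs were called, beside 35.4% of all tested miRNAs. The lymphocyte call, miR-181b-5p (0.27), ended without any 1 of serum Con A EV library 3 and RAW Con A EV libraries 1 and 3 (adjusted p = 0.0692, 0.0749 and 0.0584). With library size alone 3 of the 4 stromal miRNAs were called higher, beside 88 of all 229 tested miRNAs in that fit. Among these 4, miR-199a-3p and miR-199b-3p are 2 names for 1 sequence.

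**Figure D3:**
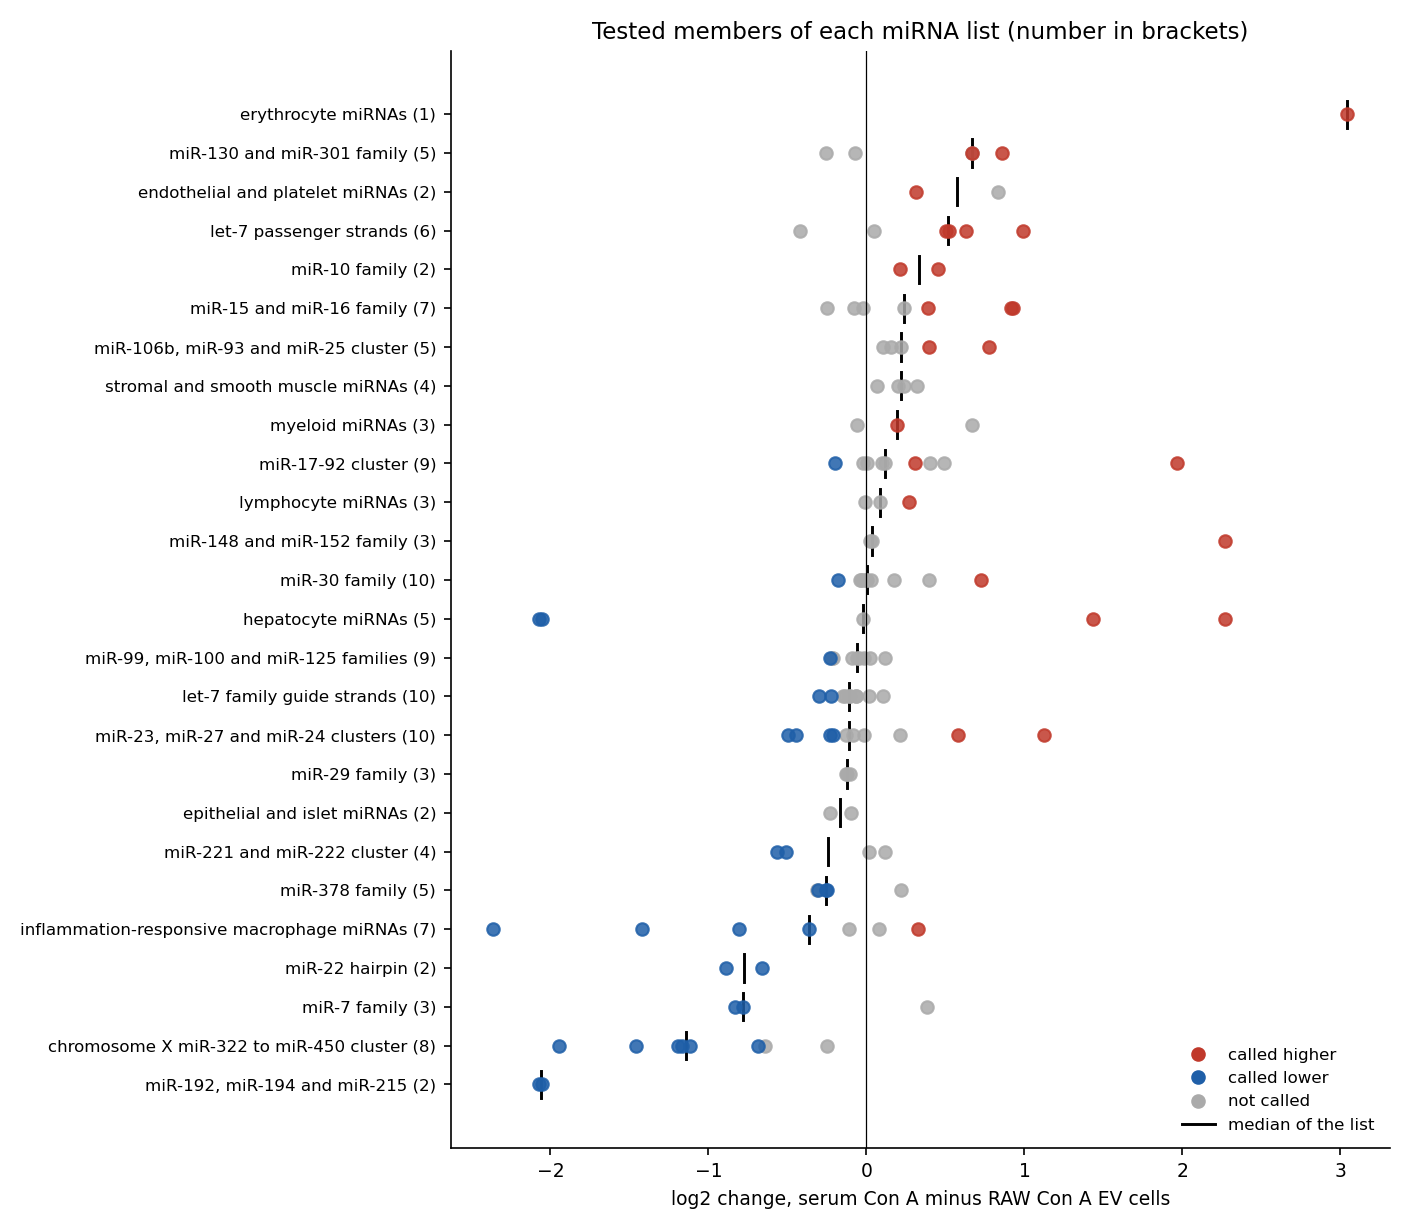
Log2 change between cells given serum Con A and RAW Con A EVs (horizontal axis) of the tested members of each miRNA list, with their number in brackets. Points are miRNAs, red called higher, blue called lower and grey not called, and black bars are list medians. The chromosome X cluster and miR-192 with miR-194 lie to the left with medians of −1.14 and −2.06, and the hepatocyte list splits to both sides.

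The cargo libraries allow these changes to be set beside what the EVs carried, with 1 library each and so no test. The serum Con A EV library held 334285 miRNA reads and the RAW Con A EV library 134884. miR-148a-3p and miR-122-5p made up 81.8% of the former, which lowers the CPM of everything else in it. Among 102 tested miRNAs with at least 50 reads over both, 11 had a higher CPM in serum Con A EVs, 86 a higher CPM in RAW Con A EVs and 5 neither, by exact 95% Poisson intervals. Of the 11, 4 were called higher in cells (miR-148a-3p, miR-122-5p, miR-451a and miR-328-3p), 3 were called lower (miR-192-5p, miR-194-5p and miR-22-3p) and 4 were not called (miR-29a-3p, miR-223-3p, let-7d-3p and miR-125a-5p).

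miR-192-5p and miR-194-5p therefore went against their cargo. miR-192-5p was 9.83 times as high in the serum Con A EV cargo (95% interval 8.96 to 10.8), at 34258 against 3484 CPM, while its level in cells given those EVs was 4.15-fold lower. miR-194-5p was 8.21 times as high (5.73 to 12.2) and miR-22-3p 8.51 times (7.04 to 10.4). miR-451a was 14.3 times as high (11.3 to 18.3), miR-148a-3p 5.53 times (5.42 to 5.64) and miR-122-5p 1.88 times (1.86 to 1.91), the same direction as in cells. The RAW Con A EV library, with its high miR-122-5p, is the denominator of these ratios. Against the RAW saline EV library miR-122-5p was 111 times as high in serum Con A EVs (101 to 123), miR-148a-3p 22.3 times (21.4 to 23.3), miR-451a 8.19 times (6.75 to 10.0), miR-192-5p 56.2 times (44.4 to 72.1), miR-194-5p 19.7 times (10.9 to 39.7) and miR-22-3p 29.0 times (20.0 to 43.7). Each kept its direction, and whether the RAW Con A EV library holds RNA of serum EVs was not tested. The gain over PBS cells was small beside the cargo CPM. The 2 values are shares of different RNA pools, TMM-scaled for cells and unscaled for EVs. Their ratio is therefore no measure of the part of the cargo taken up. For miR-148a-3p the gain was 0.0620% of the cargo CPM with serum Con A EVs and 0.0521% with RAW Con A EVs. For miR-122-5p it was 0.0453% and 0.0253%, and for miR-451a 0.883% and 1.73%. The 1.73% rests on 6 reads at a mean of 9.21 CPM, within the range of the floor for a count of 0. All percents for RAW Con A EVs rest on the same RAW Con A EV library.

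miR-155-5p was scarce in both cargoes, at 117 CPM in serum Con A EVs and 719 CPM in RAW Con A EVs, below its level of 1038 CPM in PBS cells. Of the 26 called falls with cargo reads, 22 (84.6%) had a higher CPM in RAW Con A EVs, beside 84.3% of all 102 miRNAs compared. Of the 15 called rises with cargo reads, 4 (26.7%) had a higher CPM in serum Con A EVs, beside 10.8% of all. Across the 102 miRNAs, which share these libraries and their depth, the log2 cargo ratio and the log2 change in cells had a Pearson r of 0.13 and a Spearman rho of 0.17, and r was −0.16 without miR-122-5p, miR-148a-3p and miR-451a. These are descriptions across miRNAs, not replicates.

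**Figure D4:**
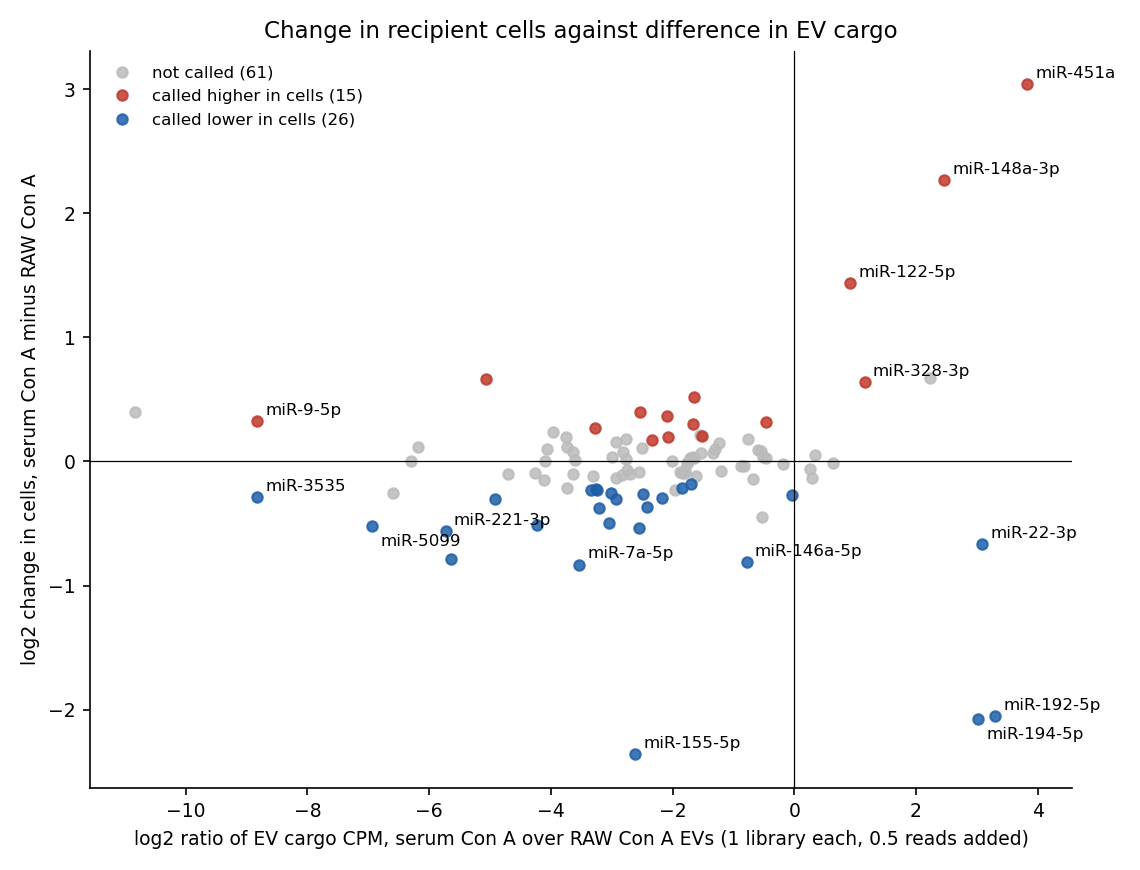
Log2 change in cells given serum Con A against RAW Con A EVs (vertical axis) against the log2 ratio of CPM in the 2 EV libraries (horizontal axis, 1 library each, 0.5 reads added) for 102 miRNAs. Red points were called higher in cells (15), blue lower (26) and grey not called (61). miR-451a, miR-148a-3p and miR-122-5p are high on both axes, and miR-192-5p, miR-194-5p and miR-22-3p are on opposite sides of 0.

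Of the 15 largest rises, 8 were of the less abundant arm of a hairpin, here the arm with fewer reads in PBS cells. Of the 15 largest falls 2 were. Less abundant arms were 72 of the 229 tested miRNAs. Their median level was 79.8 CPM, against 905 CPM for more abundant arms, and large log2 changes arise more easily at low levels. miR-92a-1-5p, the rarer arm of the miR-17-92 hairpin Mir92-1, had 103, 69.4 and 72.3 CPM with serum Con A EVs against 23.9, 17.3 and 21.8 CPM with RAW Con A EVs. Its groups did not overlap (log2 change 1.97, SE 0.34, adjusted p = 9.99e-07, edgeR's test), whereas the abundant miR-92a-3p of the same hairpin and a copy of it stood at 0.00 (adjusted p = 0.989). PBS cells had 45.1 CPM and RAW saline EV cells 15.0 CPM of miR-92a-1-5p. let-7a-1-3p and let-7c-2-3p, 2 names for 1 sequence, were higher by 0.63 and 0.52 (adjusted p = 6.16e-05 and 8.46e-04), and miR-16-1-3p by 0.93 (SE 0.20, adjusted p = 1.11e-04). miR-181a-2-3p had 86.7, 99.2 and 85.5 CPM against 41.8, 47.6 and 35.5 CPM, all serum libraries being higher (log2 change 1.14, SE 0.28, adjusted p = 5.48e-04). Of the 6 tested names of let-7 passenger strands 4 were called higher and 0 lower, beside 17.9% and 17.5% of all tested miRNAs. The identical let-7a-1-3p and let-7c-2-3p count 1 sequence as 2 of these calls. The lowest member, let-7e-3p, stood at −0.42 and was not called. The rise of let-7c-1-3p (0.51) ended without any 1 of libraries 1 and 3 of the serum Con A EV group and libraries 1 and 2 of the RAW Con A EV group (adjusted p = 0.0975 to 0.147). The rise of let-7f-1-3p (0.99) ended without library 1 of the serum Con A EV group or library 1 of the RAW Con A EV group (adjusted p = 0.0520 and 0.0533, edgeR).

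Of 72 tested less abundant arms, 16 (22.2%) were called higher and 4 (5.56%) lower, with a median log2 change of 0.13. The share called higher was near the 17.9% over all tested miRNAs, and the share called lower was below the 17.5% over all. Of 131 more abundant arms 20 (15.3%) were higher and 29 (22.1%) lower, with a median of −0.02. Between 20 and 500 CPM these were 16 and 4 of 64 less abundant arms, and 7 and 9 of 54 more abundant arms. Less abundant arms made up 1.46 to 1.53% of the miRNA reads in the serum Con A EV libraries and 1.17 to 1.22% in the RAW Con A EV libraries, with no overlap. In PBS and RAW saline EV libraries they made up 1.37 to 1.46% and 1.10 to 1.21%. These are shares of reads without TMM scaling, unlike the levels above. The TMM factors were 1.07 to 1.10 in the serum Con A EV, 0.91 to 0.96 in the RAW Con A EV and 1.02 to 1.04 in the PBS libraries. Dividing by them narrows the gap between the 2 EV groups, and scaled shares were not computed. Of the 16 higher calls among these arms, 7 held without any 1 library, and 7 were lost without RAW Con A EV library 3. Of 67 hairpins with both arms tested, 3 had arms called in opposite directions (let-7f, miR-23b and miR-27a) and 3 had all arms called in the same direction (miR-10a, miR-155 and miR-22). The opposite calls of let-7f and miR-27a rest on falls of let-7f-5p and miR-27a-3p that ended with library size alone, and that of miR-23b on a rise of miR-23b-5p (1.12), with 37.1 ± 4.63 against 16.1 ± 3.73 CPM, that was called in none of the fits without 1 library (adjusted p up to 0.0976, and not tested without serum Con A EV library 1).

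**Figure D5:**
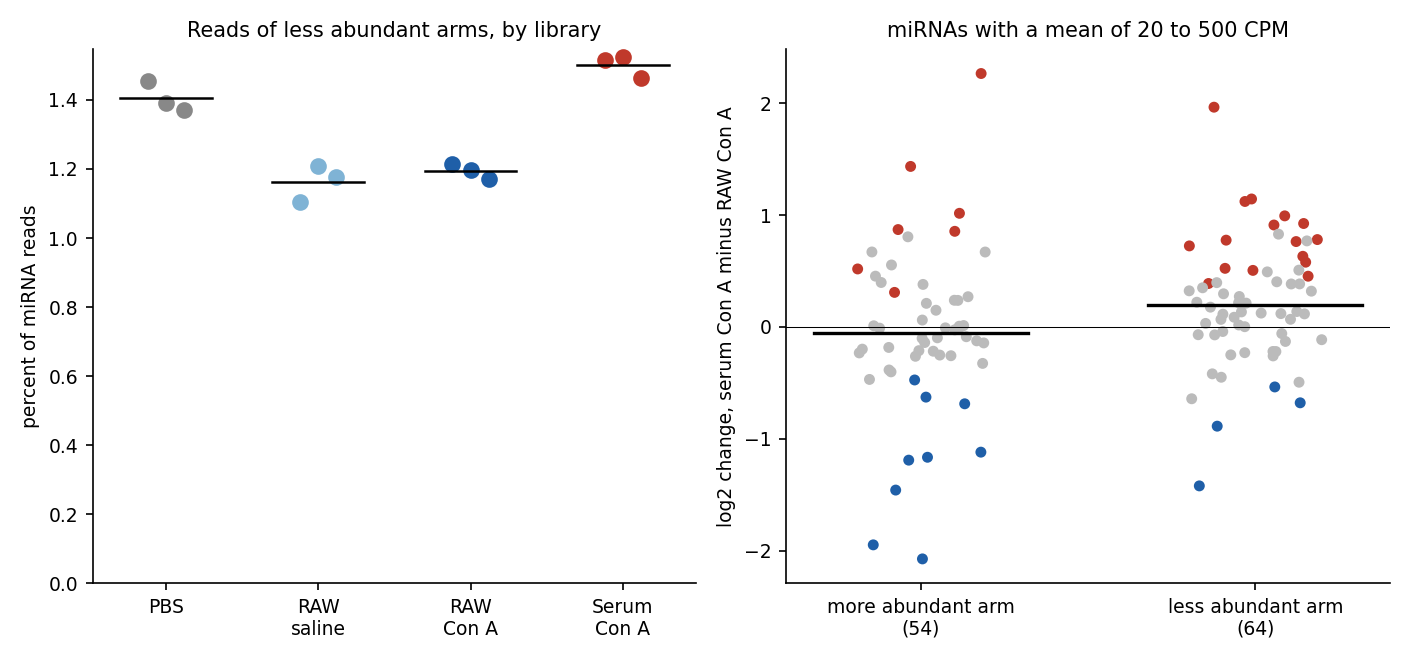
Left, percent of miRNA reads from the less abundant arms in each library (points) with group means (lines, n = 3 per group). Right, log2 change between cells given serum Con A and RAW Con A EVs for miRNAs of 20 to 500 CPM, by arm, with medians as black lines and calls in red (higher) and blue (lower). The serum Con A EV libraries have the largest share of reads before TMM scaling, and the less abundant arms have 16 red and 4 blue points.

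More abundant arms that were higher with serum Con A EVs included miR-130b-5p, from a hairpin whose other arm, miR-130b-3p, stood at −0.07 (adjusted p = 0.801). miR-130b-5p had 1695, 1581 and 1851 CPM against 1044, 1151 and 1039 CPM, with no overlap (log2 change 0.67, SE 0.08, adjusted p = 6.22e-11, edgeR's test). miR-339-5p had 1015, 1131 and 1035 CPM against 632, 653 and 701 CPM, all serum libraries higher (log2 change 0.66, SE 0.10, adjusted p = 4.97e-09). miR-328-3p stood at 1105 ± 145 against 731 ± 147 CPM (log2 change 0.64, SE 0.11, adjusted p = 4.28e-06). Smaller rises were those of miR-26a-5p (0.30), which targets the polycomb subunit Ezh2, miR-425-5p (0.36) and miR-106b-3p (0.40). Of the list counts, 3 of 7 tested members of the miR-15 and miR-16 family were called higher and 0 lower. These 3 were 3p arms (miR-16-1-3p, miR-16-2-3p and miR-15b-3p), and the 4 tested 5p arms, miR-16-5p among them, were not called. In the lists of miR-106b, miR-93 and miR-25 and of miR-130 and miR-301, 2 of 5 each were called higher and 0 lower. Over all tested miRNAs 17.9% were higher and 17.5% lower, the background for each main-fit list count that follows as well. For counts with library size alone the background is 88 higher and 20 lower of 229. Of the 7 list calls above, those of miR-301a-5p, miR-16-2-3p, miR-15b-3p and miR-25-5p were lost without library 3 of the RAW Con A EV group (edgeR adjusted p of 0.0899, 0.102, 0.0751 and 0.180). Each was also lost without 1 or more of the other libraries. In the miR-17-92 list of 9 it was 2 higher and 1 lower, and the fall, miR-19b-3p (−0.20), stood at 0.02 with library size alone. miR-19b-3p and 1 of the 2 rises, miR-18a-5p (0.31), each lost their call in 5 of the 6 fits without 1 library, miR-19b-3p in all but that without library 1 of the RAW Con A EV group (adjusted p of at most 0.202) and miR-18a-5p in all but that without library 1 of the serum Con A EV group (at most 0.100). Among 10 tested members of the miR-30 list 1 was higher and 1 lower. The lower one, miR-30a-5p (−0.18), also stood on the other side of 0 with library size alone, at 0.03, where 6 of the list were higher and 0 lower. Of the list of the miR-23, miR-27 and miR-24 clusters 2 of 10 were higher and 4 lower, and 2 and 1 with library size alone. Of the guide strands of let-7, a family that restrains growth, 0 of 10 were higher and 2 lower, and 3 and 0 with library size alone, where the median moved from −0.11 to 0.10. Of the miR-99, miR-100 and miR-125 families 0 of 9 were higher and 1 lower, and 3 and 0 with library size alone. The miR-29 family had 0 calls of 3, the miR-148 and miR-152 family 1 of 3 (miR-148a-3p), and 0 muscle miRNAs were tested. Both tested arms of miR-10a were called higher (0.21 and 0.45), and miR-10a-3p lost its call without any 1 of serum Con A EV libraries 2 and 3 and RAW Con A EV libraries 2 and 3 (adjusted p up to 0.249, edgeR).

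Setting the 81 called miRNAs beside the other groups, which enter the same fit, the RAW saline EV mean was nearer to the RAW Con A EV mean for 73 and nearer to the serum Con A EV mean for 8. For the 148 miRNAs that were not called these were 93 and 55. The PBS mean was nearer to the RAW Con A EV mean for 49 of the calls and nearer to the serum Con A EV mean for 32, and for the 148 others these were 74 and 74. For 46 calls all 3 serum Con A EV libraries lay beyond all PBS libraries in the direction of the difference, as for miR-155-5p and miR-192-5p, and for 29 all 3 RAW Con A EV libraries lay beyond them on the opposite side, as for miR-146a-5p and miR-7a-5p. Among the 148 others these were 27 and 20. These counts reuse the libraries of the comparison and are given without a test.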

How the data were processed

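Small RNA of RAW264.7 cells and of EVs was sequenced as single reads of 51 bp on a MiSeq after NEBNext library preparation, per the labels' protocols, with a plant miRNA as a spike in EV lysates. The authors deposited raw counts of reads per mature miRNA name for 12 cell and 4 EV libraries, which were the values tested. They also deposited a normalized signal for cells, which was the count times 1 factor per library in 385 rows as tested on the values, and was used as an alternative scaling. edgeR is named per the submitters' processing notes, without a version. The sources used here give no aligner, annotation or build.

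Counts were filtered with filterByExpr, scaled by TMM and fitted in 1 quasi-likelihood model over the 12 cell libraries with edgeR 4.0.16 in R 4.3.3, without a replicate block. Tests were 2-sided with Benjamini-Hochberg adjustment over 229 miRNAs and a threshold of 0.05. No column was left unmapped to a sample. Replicate libraries differed by more than sampling noise (chi-square per degree of freedom 1.84 to 8.30). Counts were also simulated for 781 names, and recovery was scored only on names that passed the filter. Among these the test recovered 90.2% of 2-fold and 46.4% of 1.25-fold changes, and 4.20% of its calls were false. Rises and falls were simulated in equal number and the libraries as independent. The false share therefore cannot speak to the choice of scaling or to shared cultures in the real libraries. EV cargo was compared by CPM with exact intervals at a 95% level.

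Named miRNAs were taken from the 15 largest rises and falls from 10 CPM upwards, the called list members with the smallest p and their other arms. A panel of myeloid and serum miRNAs and the 10 leading miRNAs of either Con A EV library were added. Not all of them are described. Large rises left out were miR-5114 (log2 change 1.64), miR-877-3p (1.02), miR-338-5p (0.87) and miR-340-3p (0.78). Each of these lost its call without at least 1 library. Outside this rule, miR-26a-5p, miR-29a-3p, miR-125a-5p, miR-148b-3p, miR-215-5p, miR-328-3p, miR-339-5p and miR-425-5p were named after their values were seen. The comparison, lists and naming rule were chosen with earlier results of these data known. Alternatives were other scalings, no filter, only the 6 libraries, a replicate block, each library left out, DESeq2 1.42.0 and limma-trend 3.58.1. Sequences and locus spans came from RefSeq, and no coordinates are printed because the authors' build is unknown.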

Additional observations from a re-analysis of the deposited data

How the results depend on the processing

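With library size alone the counts moved from 41 higher and 40 lower to 88 and 20 (18.5% lower). Named miRNAs a little below 0 changed sign, among them miR-30a-5p to 0.028, miR-19b-3p to 0.019 and miR-30d-5p to 0.17. List medians close to 0 crossed it too, that of the miR-29 family from −0.12 to 0.095. DESeq2 called 22 higher and 33 lower (60% lower). The fits that leave out 1 library called 23 to 37 higher and 35 to 40 lower, 59 to 74 in all, with the fewest (23 and 36, 61.0% lower) without RAW Con A EV library 3. The cause was not tested. Upper-quartile scaling gave 36 and 40, RLE factors 40 and 40, the authors' scaling 33 and 42, no filter 29 and 37, the 6 libraries alone 40 and 40, and limma-trend 38 and 39. No call shared with any of these fits had the opposite sign. The labels do not tie equal replicate numbers to a shared culture or day, and the deviations of same-numbered libraries had r of 0.05, −0.17 and 0.11 over 158 miRNAs, with 2 of 6 libraries closest to their own number, so the numbers were not taken as pairs. A replicate block gave 80 calls, 40 higher and 40 lower. With at least 20 or 200 cargo reads in place of 50, 4 and 3 of the called rises had a higher CPM in serum Con A EVs and 28 and 17 of the called falls in RAW Con A EVs. With the RAW saline EV library in place of the RAW Con A EV library, an alternative chosen after seeing the data, these were 3 and 19. Of the 41 higher and 40 lower calls, 20 and 11 had a mean under 200 CPM.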
